A study of Homo sapiens with 16 samples.

Results

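Prime-edited HepG2 lines homozygous for the G allele at codon 148 of PNPLA3 (GG) were compared with heterozygous lines (GC), both after palmitic acid. The members were the 3 GG libraries (lines 1, 2 and 6) and the 3 GC libraries (lines 2, 3 and 4) that the labels list as treated, which makes 6 of the 16 libraries of the study. Each line, called a clone here, gave 1 treated library and 1 untreated control library, and n counts clones. HepG2 is an established human liver cancer line, and prime editing writes a chosen base change into DNA without a double-strand break. The protocol gives 250 µM palmitic acid for 48 h for all treated cells. The labels of single libraries read 48, 49 and 50 h for GG clones 1, 2 and 6 and 51, 52 and 53 h for GC clones 2, 3 and 4; if those hours were real, treatment time and genotype cannot be told apart. Neither the genotype of HepG2 before editing nor the vehicle of the controls was stated in the labels. A line that is 1 clone carries whatever else that clone acquired, and with 3 clones against 3 this cannot be told apart from genotype in any single gene.

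PNPLA3 is a patatin-like lipase that sits on lipid droplets and on membranes of the endoplasmic reticulum and acts on triglyceride and retinyl esters. Its I148M form, encoded by the G allele, is the best known common genetic risk factor for fatty liver disease and accumulates on droplets, where it limits access of the main triglyceride lipase PNPLA2. Palmitic acid is a saturated fatty acid that liver cells store as triglyceride, oxidise in mitochondria, or, when in excess, respond to with endoplasmic reticulum stress and cell death.

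The site that separates the genotypes is shown because it is the only difference the clones were designed to have. It lies in exon 3 of 9 of PNPLA3 on the plus strand of GRCh38, at chr22:43928824-43928889 with the codon at positions 43928845 to 43928847. The stretch below is the reference coding sequence from GENCODE, 5′ to 3′, with codon 148 in capitals. The reference codon encodes isoleucine, and the C-to-G change at its last base encodes methionine.
PNPLA3 codon 148: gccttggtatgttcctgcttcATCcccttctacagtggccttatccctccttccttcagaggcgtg

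The 6 libraries held 11224202 to 14442666 reads. All 12 hepatocyte and HepG2 markers passed the filter on low values, which asks for a mean of at least 1 unit over the 6 libraries (units are the deposited per-million values, which carry the authors' scaling). Their lowest values included 4847 units for AFP, the fetal albumin-like protein, 9253 for APOB and 358 for HNF4A, while ALB ran from 20.6 to 820 and TTR from 3.21 to 99.8. Of 29 marker symbols for other cell types 13 were tested: 5 stellate, 3 biliary, 3 macrophage and 2 endothelial. Levels were summed over all markers of a type that were in the table, including those under the filter. These sums overlapped between GG and GC libraries for stellate (72.5 to 121 against 75.2 to 97.2 units), biliary (325 to 368 against 333 to 395), macrophage (461 to 722 against 453 to 1060) and endothelial genes (10.0 to 33.7 against 10.4 to 13.7). Most of the macrophage sum was LYZ (432 to 1054 units) and most of the biliary sum SOX9 (215 to 315). The fibroblast collagen COL1A1 and the macrophage receptor CSF1R were in the table but under the filter, with no value above 0.482 and 0.375 units. The endothelial genes CDH5 and STAB2 were under it too, with no value above 1.69 units. In bulk RNA, fewer cells of a type and less RNA per cell cannot be told apart.

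The libraries did not sort by genotype. Across the 13027 tested genes the closest of the 15 pairs of libraries was GG clone 1 with GC clone 3 (Pearson r = 0.982 across genes, as a description), and the most distant pair was GG clones 2 and 6 (r = 0.928). The first principal component, with 33.9% of the variance, set GG clone 2 (41.5) against GG clone 6 (-52.6), with all 3 GC clones between them. The next component, with 29.5%, set GC clone 4 (-50.7) apart from the other clones.

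No gene passed the test between GG and GC under palmitic acid (limma, two-sided, Benjamini-Hochberg adjusted p under 0.05 over 13027 genes, 0% called). The smallest adjusted p was 0.646. An unadjusted p under 0.05 was reached by 644 genes (4.94%), of which 254 were higher (1.95%) and 390 lower in GG (2.99%), and by 336 genes without GC clone 3 and 354 without GC clone 4. In 1551 genes (11.9%) all 3 GG libraries lay on 1 side of all 3 GC libraries, 805 with GG above (6.18%) and 746 with GG below (5.73%). These shares are the base for every count of wholly higher or wholly lower genes in a list below. The median standard error of a log2 difference was 0.23 and the 95% interval reached 0.54 to either side in the median gene. This interval is not adjusted for the 13027 tests, so the smallest difference that could pass is larger. Even ABCC3, at -1.42 with a standard error of 0.19, did not pass (limma, adjusted p = 0.646). Every gene named below has an adjusted p of at least 0.646 in this test, and differences are log2 of GG minus GC on the log2(value + 0.5) scale with their standard error (n = 3 and 3 clones), which understates the difference of low genes. Values in each sentence follow the order of clones 1, 2 and 6 for GG and 2, 3 and 4 for GC. A count test, DESeq2 on reads recovered from the table, called 15 genes (3 higher and 12 lower in GG), while edgeR on the same reads called 0.

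PNPLA3 itself was the edited gene and was lower in the GG libraries. It stood at 8.39, 3.94 and 3.56 units in GG and 13.1, 9.55 and 9.29 in GC, a log2 difference of -1.02 ± 0.34 (95% interval -1.83 to -0.22, adjusted p = 0.886). The groups did not overlap under palmitic acid, and GG clone 1 was the closest of its group to the GC clones. In the untreated clones the values were 6.64, 4.67 and 3.47 in GG and 9.88, 11.2 and 6.52 in GC, where GG clone 1 and GC clone 4 overlapped. Leaving out any 1 clone kept the difference between -1.38 and -0.81. The edit changes 1 base of the coding sequence, so the level does not check the genotype labels. These are counts of 39 to 107 reads in GG and 99 to 193 in GC.

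Of the 8 patatin-like lipases listed, 6 were tested; 2 of them had GG wholly below GC, against 5.73% of all genes. PNPLA4, which acts on retinyl esters and triglyceride, was the other, at 10.5, 11.1 and 9.04 units in GG and 12.7, 12.9 and 13.3 in GC (-0.33 ± 0.18). PNPLA2, the main triglyceride lipase of droplets (also called ATGL), was alike in range at 50.8 to 85.8 units in GG and 59.5 to 94.9 in GC (-0.17 ± 0.25). The phospholipases PNPLA6 (0.36 ± 0.25) and PNPLA8 (0.23 ± 0.21) were on the other side of 0 with overlapping groups, and PNPLA7 (-0.58 ± 0.37) overlapped too. The list median was -0.25 (-0.16 without GC clone 4), beside -0.01 over all tested genes.

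Among the 11 tested genes that neighbour PNPLA3 on chromosome 22, differences were scattered in size and 9 of 11 were below 0. Their median of -0.12 ran from -0.24 without GG clone 2 to -0.09 without GG clone 6. SAMM50, the mitochondrial outer membrane assembly protein encoded next to PNPLA3, was at 47.8, 53.1 and 35.6 units in GG and 54.0, 50.6 and 42.7 in GC (-0.12 ± 0.19). TTLL1, a tubulin glutamylase, was wholly lower in GG at 2.59, 1.71 and 1.83 units against 3.61, 4.50 and 5.72 (-1.0 ± 0.28), and its relative TTLL12 was too (-0.37 ± 0.20, and -0.20 without GC clone 4). The nucleoporin NUP50 was wholly higher in GG at 141, 153 and 171 units against 117, 114 and 127 (0.37 ± 0.13). TSPO, a mitochondrial cholesterol-binding protein (-0.47 ± 0.32), CYB5R3 (-0.21 ± 0.16), PACSIN2 (0.10 ± 0.19), ARFGAP3 (-0.02 ± 0.18), BIK, MCAT and PRR5 overlapped between genotypes. Groups were separate in 27.3% of the 11 genes, beside 11.9% of all genes.

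Among lipid droplet coat genes, the low-level PLIN4 and PLIN5 were lower in all 3 GG clones, while the abundant PLIN2 and PLIN3 overlapped between genotypes. PLIN5, which tethers droplets to mitochondria, stood at 0.627, 0.223 and 0.183 units in GG and 1.91, 0.883 and 3.85 in GC (-1.57 ± 0.48). These values rest on 2 to 8 reads in GG and 11 to 41 in GC. PLIN4, a coat protein with a long amphipathic repeat, stood at 9.49, 5.87 and 9.50 units in GG and 16.8, 15.9 and 13.3 in GC (-0.87 ± 0.24). Both were also wholly lower in GG in the untreated clones (-1.43 and -0.45). CIDEC, which drives fusion of droplets, was lower in GG on average (-0.83 ± 0.33) but GC clone 4, at 4.50 units, lay below GG clone 2, at 4.61. PLIN2, the abundant coat protein of liver droplets, stood at 393, 393 and 681 units in GG and 346, 436 and 395 in GC (0.27 ± 0.24). PLIN3, a coat protein of nascent droplets, stood at 139, 151.5 and 139 units in GG and 212, 131 and 100.4 in GC (0.02 ± 0.26).

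Of the 23 tested genes of droplets and triglyceride synthesis, 11 were higher and 12 lower in GG. Groups were separate in 13% of them, 2 wholly below and 1 wholly above, beside 11.9% of all genes. The one above was GPAT4, a glycerol-3-phosphate acyltransferase of the first step of triglyceride synthesis, at 75.3, 77.3 and 105 units in GG and 68.2, 72.2 and 71.1 in GC. Its mitochondrial relative GPAM overlapped at 638, 450 and 455 units in GG and 496, 633 and 953 in GC (-0.40 ± 0.27), as did the lysosomal lipase LIPA (0.28 ± 0.22). The median of these genes was -0.17, and without GG clone 2 it was 0.03.

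**Figure D1:**
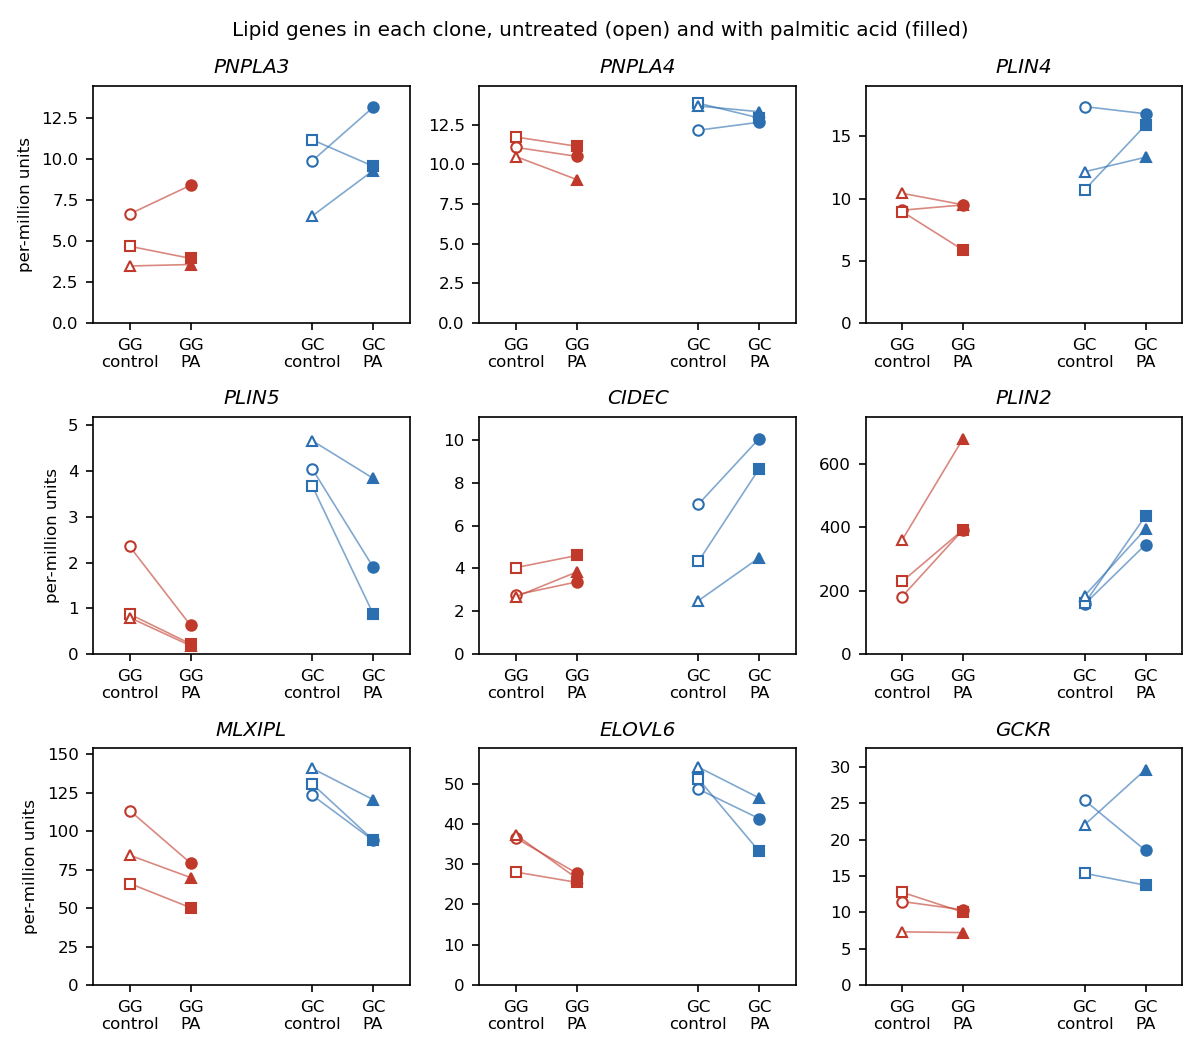
Level of 9 lipid genes in each clone, in per-million units on the y axis, for GG (red) and GC (blue) without (open) and with (filled) palmitic acid; a line joins the 2 libraries of a clone, and circles, squares and triangles mark clones 1, 2 and 6 of GG and 2, 3 and 4 of GC. Filled PNPLA3, PNPLA4, PLIN4, PLIN5, MLXIPL, ELOVL6 and GCKR symbols lie lower in all 3 GG clones than in all 3 GC clones, while CIDEC and PLIN2 overlap.

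Genes of fatty acid synthesis were mostly lower in the GG clones, 13 of 16, with a list median of -0.26. Of the 16, 2 were wholly lower (12.5%, beside 5.73% of all genes). MLXIPL encodes ChREBP, the carbohydrate-responsive activator of lipogenic genes; it stood at 79.3, 50.3 and 69.9 units in GG and 94.1, 94.3 and 121 in GC (-0.64 ± 0.21). ELOVL6, the elongase that converts palmitate to stearate, stood at 27.8, 25.5 and 26.5 units in GG and 41.3, 33.2 and 46.4 in GC (-0.58 ± 0.17). Both were also wholly lower in GG without palmitic acid. Fatty acid synthase FASN (-0.38 ± 0.21), the citrate lyase ACLY (-0.34 ± 0.18) and the desaturase SCD (-0.29 ± 0.24) were lower on average but overlapped, and SREBF1 lay near 0 (-0.07 ± 0.21). GC clone 4 held the highest value in 8 of the 16 genes, and without it the list median was -0.12.

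Cholesterol synthesis and uptake genes leaned lower in GG in 22 of 23, with a median of -0.28. Few of them separated the groups: only SREBF2 was wholly lower (4.35% of the list, beside 5.73% of all genes). SREBF2, the transcription factor of this pathway, stood at 210.5, 201 and 226 units in GG and 244, 257 and 448 in GC (-0.52 ± 0.24). The epoxidase SQLE (-0.29 ± 0.22), the cyclase LSS (-0.51 ± 0.22) and the reductases DHCR7 (-0.59 ± 0.26) and TM7SF2 (-0.97 ± 0.40) overlapped. GG clone 6 held the lowest value in 16 of the 23 genes, and the list median was -0.18 without it and -0.46 without GG clone 2.

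Of 18 lipoprotein genes 14 were lower in GG, with a median of -0.28 that was -0.14 without GC clone 4 or GG clone 6 and -0.15 without GG clone 1. Among them was APOA2, a protein of high density lipoprotein, wholly lower at 973, 1294 and 685 units in GG and 1318, 1468 and 1297 in GC (-0.51 ± 0.24, and -0.28 without GG clone 6). It was the only separated gene of this list (5.56%, beside 11.9% of all genes). APOB, the structural protein of very low density lipoprotein, overlapped at 15177, 14459 and 9253 units in GG and 14899, 16260 and 17606 in GC (-0.36 ± 0.30, and -0.13 without GG clone 6). APOE (-0.02 ± 0.14) and MTTP, which loads lipid onto APOB (-0.21 ± 0.24), overlapped.

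Fatty acid oxidation gave no gene of 22 whose groups separated, against 11.9% of all genes. EHHADH, the peroxisomal bifunctional enzyme, had the largest lean among the 3 genes of smallest p (-0.69 ± 0.30), followed by ECH1 (-0.42 ± 0.25) and CPT2 (-0.34 ± 0.19). CPT1A, the gate of fatty acid entry into mitochondria, varied widely inside each genotype, at 17.4, 22.6 and 60.3 units in GG and 42.1, 22.1 and 5.06 in GC. Bile acid genes also had none of 11 separated, with CYP27A1 at -0.24 ± 0.16 and the receptor NR0B2 at -0.44 ± 0.29, and retinoid genes none of 11, with the retinol dehydrogenases RDH10 (0.54 ± 0.30) and RDH11 (0.35 ± 0.21) higher on average in GG.

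At other fatty liver loci, 1 of 19 genes was wholly lower in GG (5.26%, beside 5.73% of all genes). It was GCKR, which holds glucokinase inactive in the nucleus, at 10.4, 10.0 and 7.22 units in GG and 18.5, 13.7 and 29.6 in GC (-1.07 ± 0.31). It was wholly lower without palmitic acid too (-0.97), and without GC clone 4 the treated difference was -0.78. PPP1R3B, a glycogen-targeting phosphatase subunit, overlapped (-0.81 ± 0.50), as did MBOAT7 (-0.02 ± 0.15), HSD17B13 (-0.18 ± 0.27) and TM6SF2 (-0.38 ± 0.30).

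Since no gene passed, the 15 genes each way with the smallest unadjusted p, among those with separate groups and a higher-group mean of 5 units or more, are given as values. ABCC3, an organic anion exporter of the basolateral hepatocyte membrane, led those lower in GG, at 10.4, 10.5 and 11.2 units in GG and 26.1, 26.6 and 36.9 in GC (-1.42 ± 0.19, 95% interval -1.87 to -0.96, adjusted p = 0.646). The 3 GG clones were close to each other, and leaving out any 1 clone kept the difference between -1.51 and -1.26. PTGR1, a reductase of leukotrienes and reactive aldehydes, stood at 11.2, 17.3 and 14.3 units in GG and 42.7, 28.3 and 41.1 in GC (-1.35 ± 0.24). CST3, the secreted cysteine protease inhibitor cystatin C, stood at 99.5, 86.8 and 75.0 units in GG and 193, 133 and 236 in GC (-1.07 ± 0.23).

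RAP2B, a small GTPase of the RAS family, was near 0 in every GG clone and spread widely in GC. It stood at 0.0784, 0.297 and 0.274 units in GG, from 1, 4 and 3 reads, and 2.93, 3.93 and 16.0 in GC, from 43, 49 and 171 reads (-3.15 ± 0.59). GC clone 4 held the highest value, and without it most of the difference remained, at -2.46. CLEC18A, a secreted lectin, stood at 3.06, 2.38 and 3.29 units in GG and 10.4, 9.23 and 13.9 in GC (-1.77 ± 0.25), and it has near-identical paralogs between which reads cannot be assigned with certainty. BLOC1S5-TXNDC5, a read-through transcript that shares exons with its parts, was at 0, 2.90 and 0 units in GG and 5.04, 13.2 and 13.8 in GC (-3.44 ± 0.79).

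ACSL6, a long-chain acyl-CoA synthetase, stood at 4.16, 2.45 and 2.01 units in GG and 11.6, 8.35 and 6.66 in GC (-1.49 ± 0.33). CRAT, which moves acetyl and short acyl groups between carnitine and CoA, stood at 22.6, 25.5 and 15.9 units in GG and 41.2, 34.7 and 52.7 in GC (-1.0 ± 0.24). ACSM3, a medium-chain acyl-CoA synthetase, stood at 18.4, 14.9 and 16.0 units in GG and 23.7, 31.5 and 37.3 in GC (-0.87 ± 0.21). These 3 genes did not overlap between genotypes with or without palmitic acid. Further genes among the 15 were MYOM3 (-1.39 ± 0.33), NOS3, the endothelial-type nitric oxide synthase (-1.08 ± 0.26), TRAF3IP2, an adaptor of the IL-17 receptor (-0.86 ± 0.21), SMIM14 (-0.79 ± 0.16) and MXRA7 (-0.58 ± 0.14).

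Among the 15 genes with GG above GC the differences were mostly smaller. FLRT2, a membrane protein that binds UNC5 receptors, had the largest, at 38.3, 24.1 and 35.2 units in GG and 8.30, 12.8 and 3.10 in GC (2.11 ± 0.47, 95% interval 1.01 to 3.21, adjusted p = 0.886). KLHL14, an adaptor of ubiquitin ligases, had the smallest p, at 105, 100.2 and 130.4 units in GG and 65.1, 66.9 and 46.1 in GC (0.92 ± 0.19). UGT2A3, a glucuronosyltransferase, stood at 12.8, 38.9 and 19.3 units in GG and 7.62, 4.17 and 8.16 in GC (1.66 ± 0.43), with GG clone 2 well above the rest.

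LIN28B, the oncofetal RNA-binding protein that blocks let-7 maturation, stood at 231, 132 and 164 units in GG and 83.0, 110.5 and 68.6 in GC (0.99 ± 0.26). PLOD2, the lysyl hydroxylase of collagen cross-linking, stood at 236, 360 and 259 units in GG and 185, 179 and 162 in GC (0.68 ± 0.18). TBK1, the kinase of innate immune signalling to interferon, was tight in both groups at 38.7, 39.4 and 40.6 units in GG and 28.9, 29.6 and 26.4 in GC (0.48 ± 0.14). Further genes among the 15 were the chemokine receptor CCR7 (1.08 ± 0.28, at most 7.67 units), SPOPL (0.85 ± 0.20), the scramblase PLSCR4 (0.63 ± 0.18), CSRNP1 (0.61 ± 0.17), the cytokine signalling suppressor SOCS5 (0.52 ± 0.16), the sodium pump subunit ATP1B3 (0.49 ± 0.14), FOXP4 (0.47 ± 0.14) and TRPC4AP (0.42 ± 0.12).

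Most of these 30 genes were separated by genotype before palmitic acid as well: 13 of the 15 higher and 14 of the 15 lower genes had groups that did not overlap in the same direction in the untreated libraries. Those libraries come from the same clones and are no further replicates. The exceptions were SPOPL (0.79 without palmitic acid), PLSCR4 (0.29) and BLOC1S5-TXNDC5 (-1.11). Of all genes separated under palmitic acid, 41.4% with GG above and 44.2% with GG below were separated the same way untreated. The 30 were picked by smallest p from the treated libraries of these same clones.

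**Figure D2:**
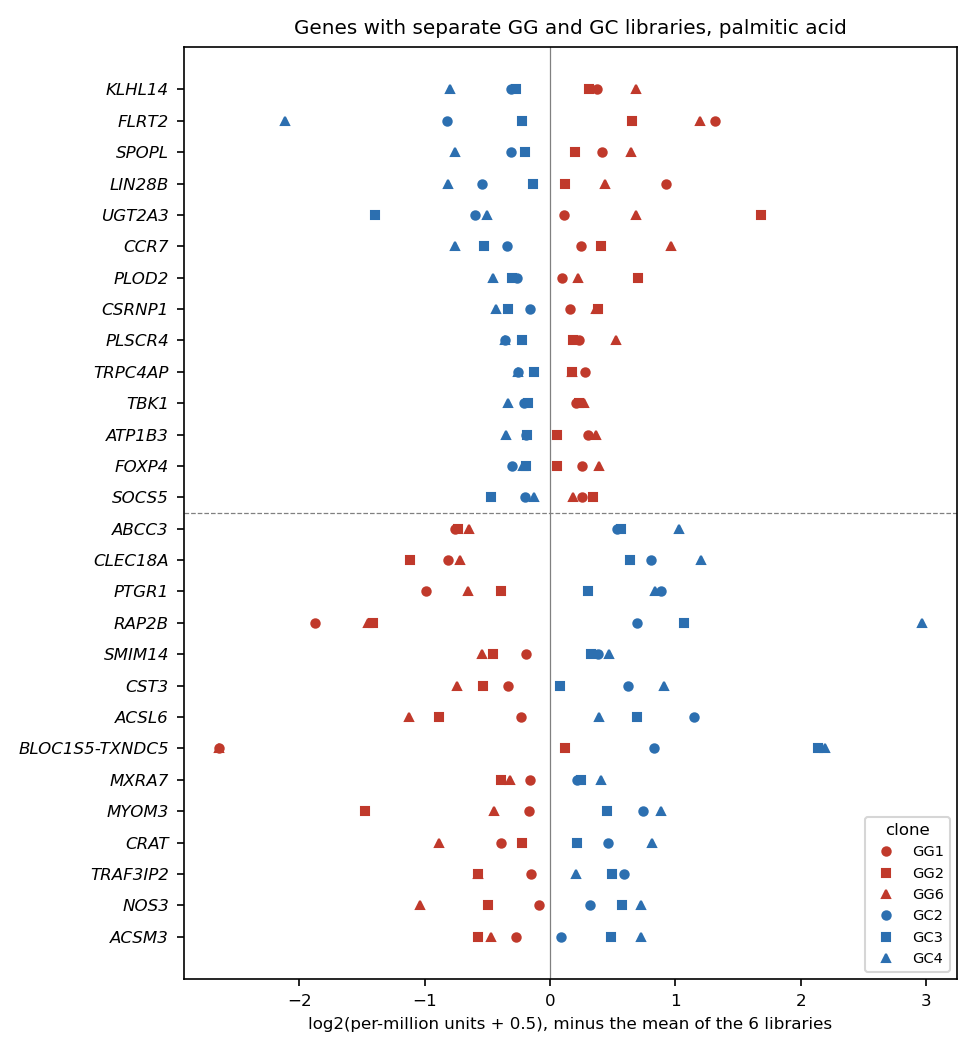
Genes with the smallest unadjusted p and separate groups, 14 with GG above GC (upper part) and 14 with GG below (lower part), of the 30 leading genes; the x axis is log2(per-million units + 0.5) minus the mean of the 6 treated libraries, each point is 1 clone, red for GG and blue for GC. In ABCC3 the 3 GG points coincide, and in RAP2B the GC clone 4 point stands far from the other clones.

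Of 22 targets of NRF2, the activator of antioxidant genes, 18 were lower in GG (median -0.27). ABCC3 was the 1 of them wholly lower, while HMOX1, the heme oxygenase that is also a target of other stress factors, was wholly higher in GG at 179, 220.2 and 214 units against 103, 151 and 147 (0.63 ± 0.19). NQO1, a quinone reductase, overlapped (-0.24 ± 0.20). Groups were separate in 9.09% of the list, beside 11.9% of all genes. GC clone 4 was the highest library for 14 of the 22 genes, and without it the list median was 0.02.

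Of 14 xenobiotic genes 7 were higher and 7 lower in GG, with 1 wholly higher and 2 wholly lower (21.4%, beside 11.9% of all genes). Their median was 0.08, and it ran from -0.37 without GC clone 2 to 0.46 without GC clone 4. The glutathione transferase GSTA4, which clears the lipid aldehyde hydroxynonenal, stood at 19.5, 17.3 and 16.6 units in GG and 27.2, 28.1 and 38.7 in GC (-0.78 ± 0.19). The sulfotransferase SULT1A1 stood at 106, 126 and 91.2 units in GG and 130.5, 143 and 187 in GC (-0.50 ± 0.19), and it has a close copy on the same chromosome that can share its reads. CYP3A7, the fetal cytochrome, was the one above, at 4.63, 3.71 and 2.10 units in GG and 0.681, 1.93 and 1.31 in GC (1.15 ± 0.40).

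Liver secretory and transcription factor genes were split. None of 22 plasma protein genes separated the groups: ALB stood at 128, 820 and 172 units in GG and 20.6, 144 and 245 in GC (1.53 ± 1.01). Of 25 coagulation and complement genes 2 were wholly lower in GG (8%, beside 5.73% of all genes). They were kininogen KNG1 at 3.45, 2.45 and 2.83 units against 5.04, 5.70 and 19.2 (-1.37 ± 0.49, and -0.79 without GC clone 4), and coagulation factor F10 (-0.46 ± 0.18). Of 20 hepatocyte transcription factors 2 were wholly lower in GG under palmitic acid (10%, beside 5.73% of all genes). One was FOXA2, at 34.0, 34.8 and 38.0 units against 40.6, 43.9 and 49.1 (-0.32 ± 0.15), which overlapped without palmitic acid. The change of the FOXA2 difference with treatment was covered by the interaction test, in which no gene passed.

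In central metabolism, 14 of 19 amino acid and urea cycle genes were lower in GG. Their median of -0.35 was -0.18 without GC clone 4, which held the highest value in 10 of the 19, and -0.22 without GG clone 6. Proline dehydrogenase PRODH was wholly lower at 0.784, 0.446 and 0.639 units against 1.70, 1.69 and 1.5 (-0.93 ± 0.30). It was the only separated gene of this list (5.26%, beside 11.9% of all genes). Of 25 glycolysis and hypoxia genes, the pyruvate kinase PKM was wholly higher in GG at 687, 776 and 659 units against 541, 569 and 416 (0.48 ± 0.17), and PFKL (-0.49 ± 0.26) and ALDOC (-0.62 ± 0.23) were wholly lower. Without GG clone 6 these were -0.19 for PFKL and -0.38 for ALDOC. Separated genes made up 12% of the glycolysis and hypoxia list, beside 11.9% of all genes. None of 7 glucose output genes separated, among them the glucose transporter SLC2A2 (-0.34 ± 0.22). The median of 32 respiratory chain genes was -0.03. Of them 2 were wholly higher and 4 wholly lower in GG (18.8%, beside 11.9% of all genes). They included NDUFB10 at 21.4, 29.6 and 15.0 units against 32.5, 31.2 and 33.2 (-0.60 ± 0.25, and -0.35 without GG clone 6) and COX7C at 91.4, 94.2 and 91.4 against 109, 119 and 117 (-0.31 ± 0.12).

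Interferon and antigen presentation genes were split: 3 of 25 were wholly higher and 2 wholly lower in GG (20%, beside 11.9% of all genes). Those higher included IFIT2, an interferon-induced RNA-binding protein (0.84 ± 0.32), and B2M, the light chain of MHC class I, at 172, 167 and 188 units in GG and 157, 153 and 148 in GC (0.20 ± 0.12). IFI27, a mitochondrial interferon-induced protein, went the other way at 0.706, 0.594 and 0.457 units in GG and 5.44, 4.17 and 3.10 in GC (-2.10 ± 0.31, 5 to 9 reads in GG and 33 to 80 in GC). IFITM2 was also wholly lower (-0.63 ± 0.25). For the NF-kB pathway 2 of 12 genes were wholly higher and 1 wholly lower in GG (25%, beside 11.9% of all genes). Those higher were the inhibitor NFKBIA at 72.1, 64.6 and 87.3 units against 58.1, 35.2 and 25.3 (0.98 ± 0.30) and the subunit NFKB1 (0.31 ± 0.15). The inhibitory enzyme TNFAIP3 was the one wholly lower (-0.46 ± 0.20, and -0.25 without GC clone 4).

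Targets of p53 leaned higher in GG, 18 of 20, with a median of 0.26. Of these, 4 were wholly higher, which is 20% of the list beside 6.18% of all genes, and none was wholly lower. MDM2, the ubiquitin ligase that degrades p53, stood at 433, 452 and 611 units in GG and 332, 310.4 and 385 in GC (0.53 ± 0.18). TIGAR, a fructose bisphosphatase, stood at 40.0, 64.5 and 45.9 units in GG and 37.4, 22.9 and 24.6 in GC (0.82 ± 0.26). The ribonucleotide reductase subunit RRM2B (0.51 ± 0.24) and the cell cycle inhibitor CDKN1A (0.28 ± 0.15) were the other 2. GG clone 2 was the highest library for 12 of the 20 genes, and without it the list median was 0.17. The apoptosis list had 1 of 20 wholly higher (5%, beside 6.18% of all genes). It was BCL2L1, which protects mitochondria, at 289, 304 and 363 units against 263, 268 and 216 (0.35 ± 0.16).

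Endoplasmic reticulum chaperone genes had a median of 0.01, and 1 of 21 was wholly higher in GG: DNAJC3, an inhibitor of the kinase PERK, at 177, 153 and 207 units against 149.5, 132 and 126 (0.39 ± 0.16). None of 24 autophagy and lysosome genes separated the groups (median 0.02). Of 19 matrix and TGF-beta genes the collagen COL6A1 was wholly lower in GG at 5.72, 0.594 and 3.29 units against 6.47, 11.4 and 43.6 (-2.38 ± 0.83), as was the laminin LAMB1 (-0.33 ± 0.20, and -0.13 without GG clone 2). Of 22 epithelial and adhesion genes 1, S100A6, was wholly higher in GG, at 1.57, 3.19 and 2.37 units against 0.340, 1.36 and 0.188 (1.45 ± 0.46). Of 16 oncofetal genes LIN28B and IGF2 were wholly higher. IGF2, the fetal growth factor, stood at 162, 159 and 332 units in GG and 1.63, 71.4 and 140 in GC (2.88 ± 1.42), and without GC clone 2 its difference was 1.03. Separated genes made up 4.76% of the chaperone, 10.5% of the matrix, 4.55% of the epithelial and 12.5% of the oncofetal list. The share over all genes was 11.9%.

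**Figure D3:**
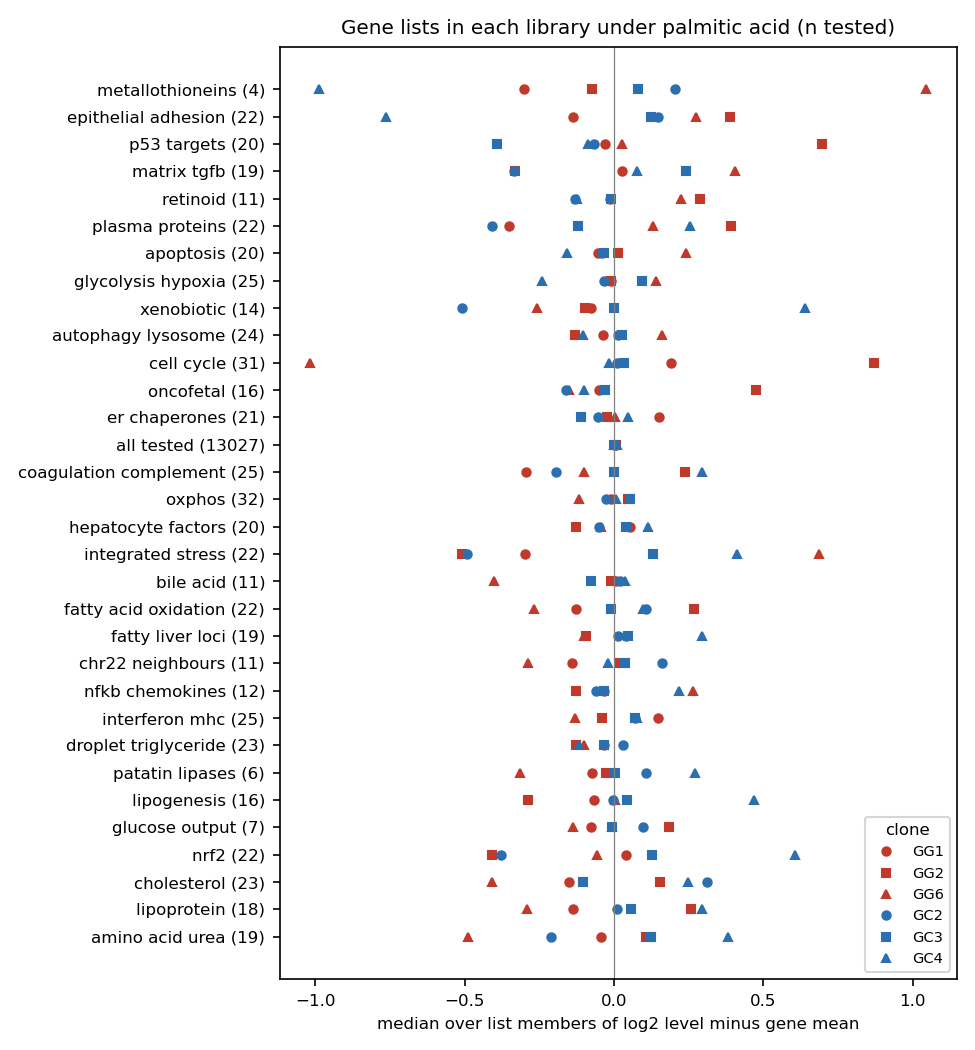
Median over the tested members of each gene list (n in brackets) of a library's log2 level minus the gene's mean over the 6 treated libraries, on the x axis, for GG clones (red) and GC clones (blue). Within-genotype spread is widest for the cell cycle list, where GG clone 2 is at 0.87 and GG clone 6 at -1.02, and groups separate in the p53 and patatin lists.

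Over all 36 lists, 2 (5.56%) had library medians that did not overlap between genotypes, the patatin-like lipases and the p53 targets. This count rests on the set of clones: leaving out 1 clone at a time gave 6 to 12 lists, and leaving out GG clone 1 and GC clone 3 together gave 14.

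The GG clones differed widely among themselves in proliferation and stress genes. Of 31 cell cycle genes, GG clone 2 held the highest value in 30 and GG clone 6 the lowest in 30, so that the GG clones spanned all 3 GC clones. The proliferation antigen MKI67 stood at 174, 231 and 29.5 units in GG and 183, 156 and 144 in GC. The cyclin CCNA2 stood at 47.5, 92.0 and 11.1 units in GG and 43.8, 40.0 and 40.9 in GC, and the mitotic kinase PLK1 at 69.7, 125 and 26.5 units in GG and 55.1, 66.0 and 68.7 in GC. None of the 31 genes separated the genotypes, and their median difference was 0.02. The untreated libraries showed the same order of GG clones, with list medians of 0.50 in clone 2 and -0.57 in clone 6.

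Genes of the integrated stress response, which ATF4 switches on when amino acids are short or proteins misfold, ran in the opposite order. GG clone 6 held the highest value in 14 of 22 genes and GG clone 2 the lowest in 13, with list medians of 0.69 and -0.51, while GC clone 2 was at -0.49 and GC clone 4 at 0.41. Asparagine synthetase ASNS stood at 103, 60.1 and 447 units in GG and 102, 206 and 376 in GC. The hormone-like stress protein GDF15 stood at 241, 105 and 445 units in GG and 199.95, 370.04 and 798 in GC (-0.80 ± 0.63). Its difference was -0.25 without GG clone 2 and -0.28 without GC clone 4. Only NUPR1, a stress-induced chromatin protein, separated the genotypes, at 16.4, 16.9 and 23.7 units in GG and 34.4, 37.7 and 25.5 in GC (-0.76 ± 0.22). That is 4.55% of the list, beside 11.9% of all genes. In the 4 tested metal response genes GG clone 6 was highest in all 4 (median 1.05) and GC clone 4 lowest in 3 (-0.99); MT2A stood at 18.5 units in GG clone 6 and 1.78 to 7.63 in the other 5 libraries.

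Single markers set GG clone 2 apart too. The biliary keratin KRT19 stood at 48.2 units there and at 0.457 to 3.74 in the other 5 libraries, and its difference of 1.08 ± 1.40 turned to -0.66 without that clone. LYVE1, a hyaluronan receptor of endothelium, stood at 4.16, 32.4 and 4.11 units in GG and 2.31, 3.29 and 2.81 in GC (1.44 ± 0.73, and 0.50 without GG clone 2). The part of other cell states in these values was not tested.

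**Figure D4:**
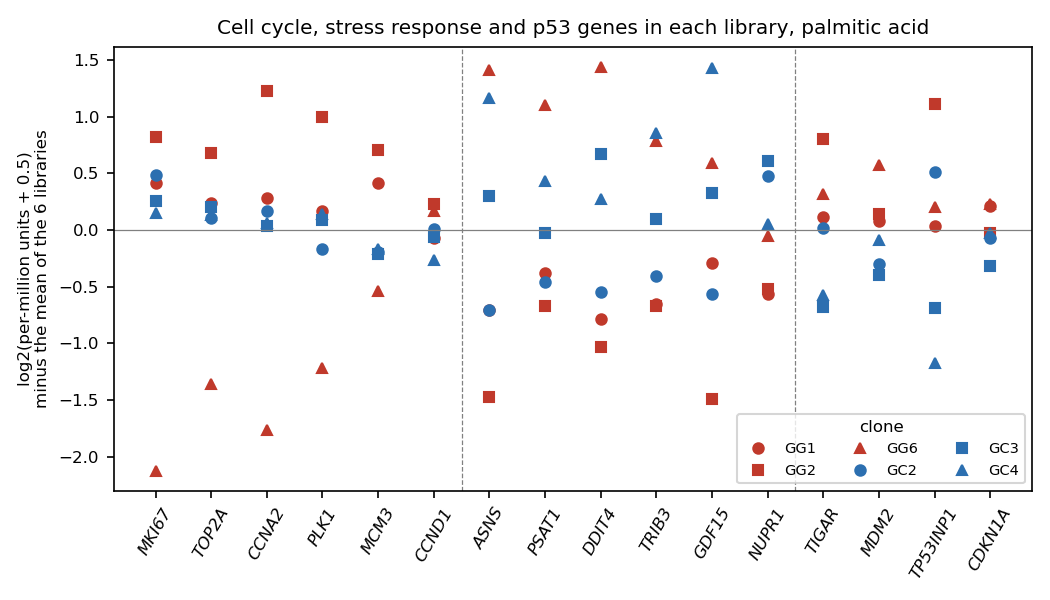
Level of 6 cell cycle, 6 integrated stress response and 4 p53 target genes in each treated library, as log2(per-million units + 0.5) minus the mean of the 6 libraries on the y axis, for GG clones (red) and GC clones (blue). GG clone 6 lies far below the other clones for MKI67, TOP2A, CCNA2 and PLK1 and at the top for ASNS, PSAT1 and DDIT4, while TIGAR and MDM2 are higher in all 3 GG clones.

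Differences were also set out by chromosome, as a description without a test. Over 12275 genes with a position, the median difference ran from -0.12 on chromosome 21 to 0.13 on chromosome 20, and in 7 of 23 chromosomes the library medians did not overlap between genotypes, though only 1 did under scaling by total counts. Chromosome 20 had the largest share of separated genes, 18.2% of 347, beside 11.9% of all genes and 7.76% on chromosome 11, the smallest share. On chromosome 20, 49 genes were wholly higher (14.1%) and 14 wholly lower in GG (4.03%). TRPC4AP, named above, is one of the higher and CST3 one of the lower. On chromosome 20 the library medians were 0.14, -0.05 and 0.10 in GG and -0.12, 0.02 and -0.08 in GC. Chromosome 14, which carries FLRT2, had 49 wholly higher (12.2%) and 12 wholly lower (3%) of 400 genes. The shares over all genes were 6.18% and 5.73%.

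Larger shifts belonged to single clones. The genes of chromosome 21 had a library median of -0.28 in GG clone 2 against 0.04 to 0.08 in the other 5 libraries, and those of chromosome 13 of -0.25 against 0.02 to 0.07. On chromosome 11 GC clone 4 was at 0.23 against -0.08 to 0.04, and on chromosome 10 both GC clone 4 (-0.22) and GG clone 2 (-0.14) were below the rest, at 0.07 to 0.13. The untreated libraries of the same clones had like values, with -0.25 for chromosome 21 in GG clone 2 and 0.22 for chromosome 11 in GC clone 4. What set these chromosome-wide levels was not tested.

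**Figure D5:**
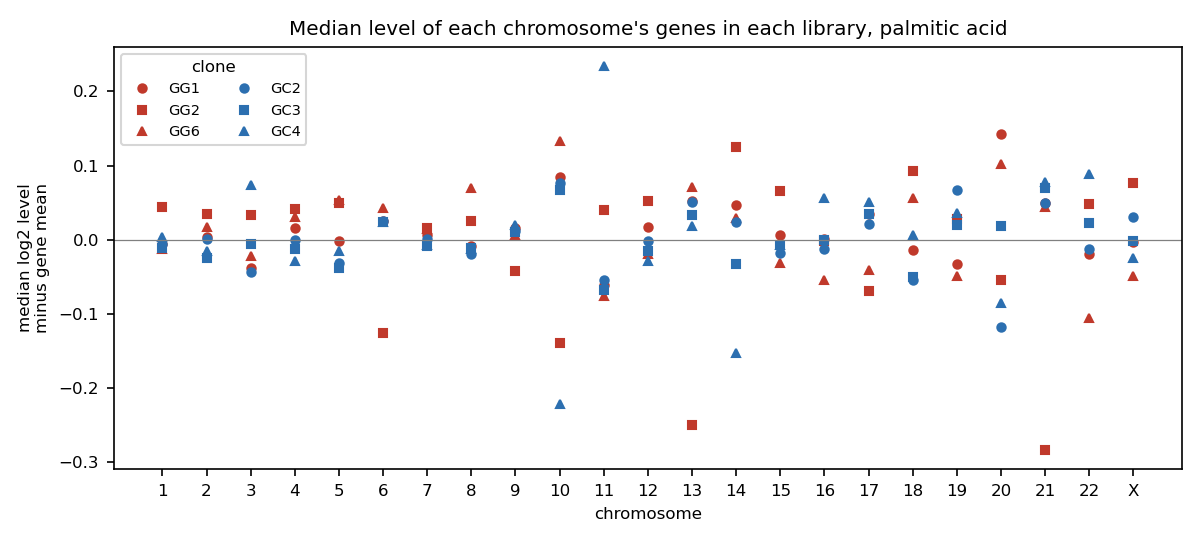
Median over the tested genes of each chromosome of a library's log2 level minus the gene's mean over the 6 treated libraries (y axis), for GG clones (red) and GC clones (blue). The points that stand away from the rest belong to GG clone 2 on chromosomes 6, 10, 13 and 21 and to GC clone 4 on chromosomes 10, 11 and 14.

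The same clones were compared without palmitic acid to show what the treated difference started from. Again no gene passed (0% called, smallest adjusted p 0.831), with 691 genes at an unadjusted p under 0.05 (5.3%) and 1599 with separate groups (12.3%). Of the 1551 genes separated under palmitic acid, 663 (42.7%) were separated the same way without it (41.4% of those with GG above and 44.2% of those with GG below), and 10598 of 13027 genes (81.4%) had the same sign of difference. The interaction, which asks whether the palmitic acid response differed between GG and GC, called no gene (0%, 25 genes or 0.192% at an unadjusted p under 0.05); with the clone as a block it also called none (0%, 416 genes or 3.19% at an unadjusted p under 0.05, smallest adjusted p 0.667). For PNPLA3 the response of GG minus that of GC was -0.18 ± 0.24 in the fit with the clone block (adjusted p = 0.998).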

How the data were processed

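Per the labels' protocols, RNA was isolated with TRIzol and a purification column, depleted of ribosomal RNA and made into stranded MGIEasy libraries. Tools listed in the submitters' processing notes are Trimmomatic 0.38, RSEM 1.3.0, Bowtie2 and edgeR, with hg38 as the build; no source used here gives the annotation, the gene filter or how counts were rounded. The authors deposited 1 table of normalized signal (16558 genes, 16 libraries). In each library all deposited values were whole multiples of the smallest step (100% within 0.01 reads), which let the reads be recovered. The deposited values were used as read, without further scaling, and are the per-million units given here, so the authors' scaling was kept.

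The 6 treated GG and GC libraries were analysed as log2(value + 0.5) for the 13027 genes whose mean was 1 unit or more. The test was limma 3.58.1 in R 4.3.3 with a mean-variance trend, two-sided, on 4 residual degrees of freedom, with p-values adjusted by Benjamini-Hochberg (threshold 0.05). The untreated libraries of the same clones stayed out of this fit. They served for the interaction, with the clone as a replicate block in an alternative: a clone's number marks the same line, and its treated deviation correlated with that of its own control at 0.529 to 0.859. The limma p-values set the difference between genotypes against the spread between these clones, which limma moderates with the spread of other genes. Count tests on recovered reads (edgeR 4.0.16, DESeq2 1.42.0) were alternatives. Only the limma fit of GG against GC was checked on simulated reads. These were drawn separately for each gene at the same dispersion, without shifts shared by many genes of a clone. The interaction and the count tests were not checked in this way.

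Named genes were PNPLA3; 15 each way with separate groups, a higher-group mean of 5 units or more and no placeholder, antisense or small RNA symbol, taken by smallest p where too few passed; up to 3 genes of each list by smallest p; and all tested patatin lipases and chromosome 22 neighbours. Other genes were named to spell out a small count or as well-known members, after their values were seen. The members and the 36 lists (704 symbols, 575 tested) were chosen with earlier results of these data known. Some genes are not reported here. Lists carry no test of their own. Positions came from GENCODE on GRCh38 (94.2% of tested genes).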

Additional observations from a re-analysis of the deposited data

Results flagged for a closer look

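For BCL2L1 and F10 the difference between treated and untreated library had one sign in all 3 GG clones and the other sign in all 3 GC clones, with some of these values close to 0. BCL2L1, a survival protein of mitochondria, was -0.21, -0.03 and -0.01 on the log2 scale in GG clones 1, 2 and 6 and 0.13, 0.18 and 0.08 in GC clones 2, 3 and 4, so that the response of GG minus that of GC was -0.212 (limma with the clone as a block, adjusted p = 0.998). F10, a coagulation factor, was 0.00, 0.04 and 0.08 in GG and -0.04, -0.05 and -0.10 in GC, a difference of 0.102 (same test, adjusted p = 0.998). Neither difference passed the test, and both were picked out of 142 named genes by the sign of the difference alone.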

How the results depend on the processing

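The count of genes past the threshold stayed at 0 under pseudocounts of 0.1 and 1, no filter, a mean of at least 5, all 16 libraries in 6 groups, total-count scaling, centring at the median gene, limma without trend (smallest adjusted p 0.058), edgeR on recovered reads (smallest adjusted p 0.607) and without each clone (0 to 0), or without GG clone 1 and GC clone 3 together. DESeq2 on recovered reads gave 15 genes, 3 higher and 12 lower in GG, among them ABCC3, RAP2B, CLEC18A, IFI27, PTGR1, UNC5B, PER3, OGFRL1, CST3, PTGFRN, SMIM14, FLRT2, EREG and the read-through ABHD14A-ACY1; the cause of the gap to limma and edgeR was not tested. The 2 lists with separate library medians became 6 to 12 without 1 clone, 14 without GG clone 1 and GC clone 3 together and 4 with centring at the median gene. The 7 chromosomes with separate medians became 5 to 10 without 1 clone, 12 without GG clone 1 and GC clone 3 together, 1 under total-count scaling and 4 with centring; fewer clones make separation easier by construction, and the cause of the scaling effect was not tested. The replicate block by clone left the interaction at 0 genes, and 0 to 0 without 1 clone. No paired analysis was possible because GG and GC are different clones that share only the number 2; the block applies to the interaction alone.

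Of 142 named genes 11 changed sign when 1 clone was left out, with lowest and highest log2 differences as follows: ACTA2 (-0.012 to 0.71), ARFGAP3 (-0.17 to 0.066), AURKA (-0.043 to 0.86), CD68 (-0.59 to 0.31), KRT19 (-0.66 to 2.17), LYZ (-0.56 to 0.086), PACSIN2 (-0.0897 to 0.23), PNPLA2 (-0.35 to 0.0297), PRR5 (-0.31 to 0.21), SAMM50 (-0.24 to 0.044) and SOX9 (-0.27 to 0.0022). None of the 30 leading genes reversed, but their choice fixed this in advance. Their groups are wholly separate, so leaving out 1 clone cannot change the sign. With 3 clones a side, the number of clones limits the precision, and low read counts limit genes such as PLIN5 and RAP2B.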

Other observations

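EREG, a growth factor of the EGF family, stood at 1.96, 28.2 and 22.2 units in GG clones 1, 2 and 6 and at 2.25, 0.883 and 0.0938 in GC clones 2, 3 and 4 under palmitic acid, so that GG clone 1 lay below GC clone 2. PTGFRN, a membrane glycoprotein, stood at 0.863, 1.11 and 0.365 units in GG and 9.19, 1.12 and 24.5 in GC. PER3, a circadian clock protein, stood at 0.235, 0.668 and 0.183 units in GG and 5.58, 2.09 and 4.50 in GC. ABHD14A-ACY1 is a read-through transcript that shares exons with its parts. It was listed at 0 in all 3 treated GC libraries and in all 6 untreated libraries of both genotypes. In the treated GG libraries it stood at 2.90, 1.93 and 2.01 units. EREG, PTGFRN, PER3 and ABHD14A-ACY1 were among the genes called by DESeq2. None of them passed in limma (adjusted p = 0.646 for ABHD14A-ACY1 and 0.886 for the others).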
